A study of Mus musculus with 13 samples.

Results

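The 39 genes described here belong to the Wnt signalling pathway: 6 ligands, the carrier Wls and the agonist Rspo3, 12 receptors, 7 secreted antagonists, 8 cytoplasmic components and 4 transcription factors of the TCF/LEF family. They were taken by name from a fixed list, and each matched 1 Ensembl gene ID among the 43629 genes of the count tables. RNA was sequenced in mouse embryonic fibroblasts (MEFs, primary connective tissue cells, here labelled E12.5, an embryonic day), grown in DMEM medium with fetal bovine serum. Total RNA came from 4 groups of 1 library each: IMP1 wild type, IMP1 knockout, IMP2 wild type and IMP2 knockout. RNA immunoprecipitates (IP) came from 3 groups of 3 libraries each, pulled down with a control IgG, with an antibody to IMP1 or with an antibody to IMP2. The genotype of the immunoprecipitated cells is not in their labels, which also leave unsaid whether a knockout line is a single clone and whether replicates came from separate cultures, so p-values measure the spread between these libraries, which may be technical. The stated purpose of the series was to find RNAs bound by IMP1 and IMP2, the RNA-binding proteins encoded by Igf2bp1 and Igf2bp2.

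Wnt proteins are lipid-modified secreted ligands that need the carrier Wls to leave the cell. In the canonical branch a Wnt binds a Frizzled receptor (Fzd) together with Lrp5 or Lrp6, Dishevelled (Dvl) is recruited, and the destruction complex of Axin, Apc and Gsk3b stops marking beta-catenin (Ctnnb1) for degradation, so that beta-catenin can act with TCF/LEF factors on target genes such as Axin2. R-spondins raise the number of Frizzled receptors on the cell surface, Sfrp proteins and Wif1 bind Wnts, and Dkk2, Sost and Sostdc1 bind the Lrp co-receptors. Ror1 and Ror2 are receptors for Wnt5a outside the beta-catenin branch. In embryonic connective tissue the pathway is known for steering precursors of cartilage, bone and dermis.

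Each library held from 11430002 to 21756430 reads counted to genes, and levels are given as scaled counts (CPM, a library's counts brought to a common total) after TMM scaling, which corrects for differences in composition between libraries. IP libraries and total RNA libraries were scaled separately, and CPM is not per transcript length, so levels are compared between libraries and not between genes. The targeted genes followed the labels: Igf2bp1 was at 32.0 CPM in IMP1 wild type and 3.28 CPM in IMP1 knockout, and Igf2bp2 at 147 CPM in IMP2 wild type and 28.1 CPM in IMP2 knockout. The 10 fibroblast markers summed to between 35737 and 61978 CPM in total RNA and between 19341 and 37147 CPM in the IP libraries. Of these 10 markers, 2 were at least 2-fold higher and 3 lower in IMP1 knockout than in IMP1 wild type. In IMP2 knockout 2 were higher and 1 lower than in IMP2 wild type. Postn was at 835 and 3542 CPM and Col3a1 at 2531 and 797.5 CPM in IMP1 wild type and knockout. Pdgfra was at 82.5 and 309 CPM and Thy1 at 688 and 92.6 CPM in IMP2 wild type and knockout. Between the wild types and the IP libraries single markers also differed in both directions: Lum, at 42.1 and 80.4 CPM in the wild types, did not exceed 0.0821 CPM in any IP library, while Pdgfra, at 74.8 and 82.5 CPM in the wild types, was at 233 to 482 CPM there. The IMP2 knockout library stood apart. Its cartilage and bone markers summed to 11136 CPM against 215 to 397 CPM in the wild types, with 5 of 6 at least 2-fold higher than in IMP2 wild type and Bglap at 0. Its macrophage markers summed to 107 CPM against 9.82 to 12.8 CPM, with 5 of 5 higher. Its muscle markers, nearly all of it Acta1 and Des, summed to 4.09 CPM against 123 to 343 CPM. Its neural markers summed to 59.9 CPM against 212 to 289 CPM, but differed in both directions. Against IMP2 wild type, 2 of these 5 were at least 2-fold lower (Nes, which held most of the wild-type sum, and Tubb3) and 1 was higher (Sox2). Map2 was at 40.9 CPM against 25.9 CPM in IMP2 wild type, and Sox10 was at 0. In the IMP1 knockout library the same sums were 201, 1.64, 115 and 127 CPM, with the macrophage markers Adgre1 and Ptprc at 0. The part of these other cell types in the knockout values below was not tested, and in bulk RNA fewer cells of a type and less RNA per cell cannot be told apart. Of the IP libraries, IMP2 IP replicate 1 differed most from its own group, with a chi-square per degree of freedom over genes of 7.70 and 8.07 against the other replicates, where the other pairs ran from 1.14 to 2.75.

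In total RNA, Rspo3, Fzd1, Fzd4, Ror1 and Wnt5b were at least 2-fold higher than wild type in both knockouts and Dkk2 was lower in both. Of the 12 receptors, Fzd2, Fzd5, Lrp5 and Lrp6 were within 2-fold in both, as were all cytoplasmic components with enough reads except Axin2. With 1 library per group there is no test of these differences, and a member was counted where it reached 2 CPM in 1 of the 2 libraries and differed at least 2-fold. In IMP1 knockout 8 of 34 such members were higher by this rule and 6 lower, where 6.53% of all genes were higher and 8.91% lower (15.4% in either direction). In IMP2 knockout 11 of 34 members were higher and 4 lower, where 10.2% of all genes were higher and 8.59% lower (18.8% in either direction). The median log2 ratio of the members was 0.35 in IMP1 knockout and 0.30 in IMP2 knockout, against 0.01 over all genes in each comparison. Raising the minimum level to 10 CPM left 9 members at least 2-fold different in IMP1 knockout in place of 14. The wild types were also set beside each other: of 34 members with 2 CPM in 1 of them, 1 differed at least 2-fold between them, Wnt10b at 3.77 CPM in IMP1 wild type and 1.52 CPM in IMP2 wild type, where 1.47% of all genes did. A single pair of libraries does not measure the spread between separately derived cell lines, which cannot be told apart from genotype here. Ratios carry exact 95% intervals that cover counting error only.

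**Figure D1:**
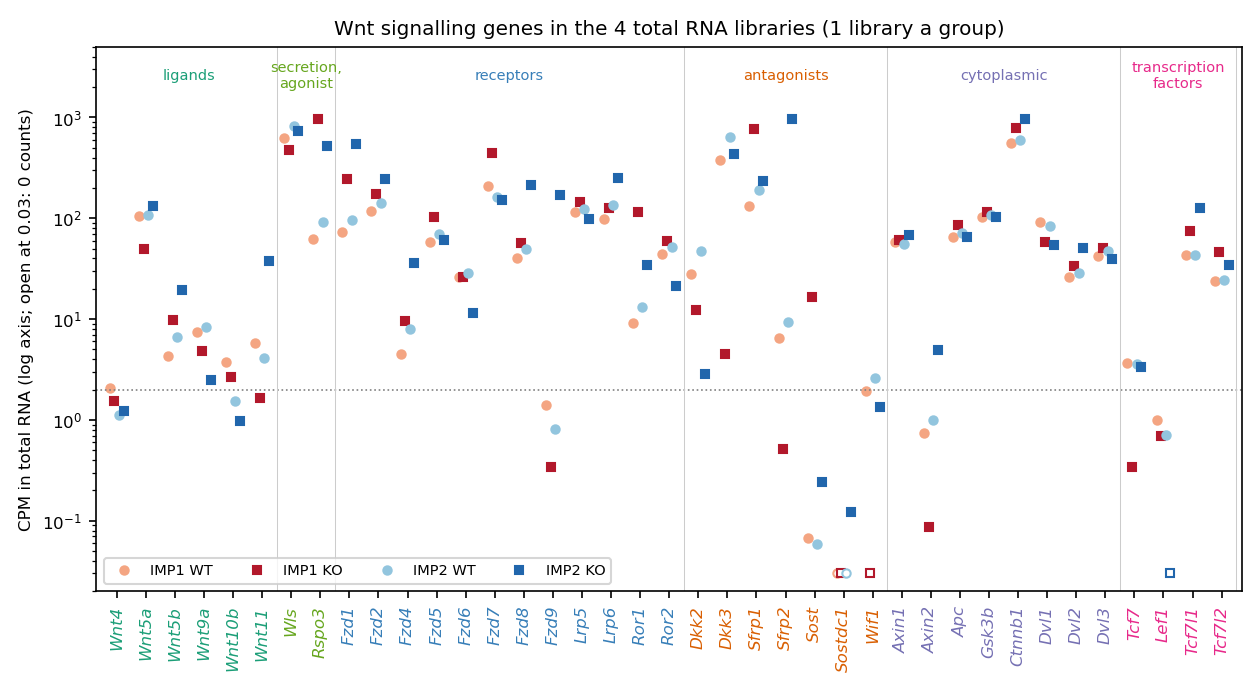
CPM in total RNA (log axis) for each of the 39 Wnt signalling genes, grouped by role, with 1 point per library; circles are wild types, squares are knockouts, open symbols at the bottom are libraries with 0 counts, and the dotted line marks 2 CPM. The squares of Rspo3, Fzd1 and Ror1 lie above the circles in both knockouts, that of Dkk3 lies far below in IMP1 knockout, those of Fzd9 and Sfrp2 lie far above in IMP2 knockout, and those of Fzd2, Fzd5, Lrp5, Apc, Axin1 and Gsk3b lie within 2-fold of their circles.

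Among the ligands, Wnt5a, the main ligand of Ror receptors, was lower in IMP1 knockout and Wnt11, another ligand of the branch outside beta-catenin, differed in opposite directions. Wnt5a was at 106 CPM in IMP1 wild type, 49.1 CPM in IMP1 knockout, 107 CPM in IMP2 wild type and 133 CPM in IMP2 knockout, which made it 2.17-fold lower in IMP1 knockout (95% interval 1.97 to 2.39) and 1.24-fold higher in IMP2 knockout. Wnt11 was at 5.78 CPM in IMP1 wild type, 1.64 CPM in IMP1 knockout, 4.11 CPM in IMP2 wild type and 37.9 CPM in IMP2 knockout. It was therefore 3.53-fold lower in IMP1 knockout (2.13 to 6.15) and 9.23-fold higher in IMP2 knockout (7.20 to 12). Wnt5b, a close relative of Wnt5a, was higher in both knockouts, at 4.30 and 9.83 CPM in IMP1 wild type and knockout and 6.63 and 19.7 CPM in IMP2 wild type and knockout, or 2.28-fold (1.67 to 3.15) and 2.97-fold (2.39 to 3.71). Wnt9a was 3.30-fold lower in IMP2 knockout (2.32 to 4.80), at 8.27 and 2.50 CPM. Wnt4 and Wnt10b did not exceed 3.77 CPM in any total RNA library, and their intervals included no difference.

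The agonist Rspo3 was higher in both knockouts and the carrier Wls was within 2-fold in both. Rspo3 stood at 61.9 CPM in IMP1 wild type, 966 CPM in IMP1 knockout, 92.8 CPM in IMP2 wild type and 520.2 CPM in IMP2 knockout. Both knockout libraries lay above both wild types, by 15.6-fold (14.6 to 16.7) in IMP1 knockout and 5.61-fold (5.31 to 5.92) in IMP2 knockout. Wls was at 619, 478, 826 and 735 CPM in the same order, 1.29-fold lower in IMP1 knockout and 1.12-fold lower in IMP2 knockout.

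Of the receptors, 4 of 11 were higher by 2-fold or more and 0 lower in IMP1 knockout, and 5 of 12 were higher and 2 lower in IMP2 knockout. The shares of all genes were 6.53% higher and 8.91% lower in IMP1 knockout, and 10.2% and 8.59% in IMP2 knockout. Fzd1, Fzd4 and Ror1 were at least 2-fold higher in both knockouts. Their promoter sequences are shown because these 3 receptor genes were higher together; each is the 250 bases before the gene's start, 5′ to 3′ on the gene's strand, from RefSeq on build GRCm38.p6. The letters searched were CTTTGA, the core of the TCF/LEF binding motif, on both strands, and capitals mark a match, which on the opposite strand reads TCAAAG. The Fzd1 window lies at chr5:4758217-4758466 on the minus strand, the Fzd4 window at chr7:89404116-89404365 on the plus strand and the Ror1 window at chr4:100095541-100095790 on the plus strand.
Fzd1: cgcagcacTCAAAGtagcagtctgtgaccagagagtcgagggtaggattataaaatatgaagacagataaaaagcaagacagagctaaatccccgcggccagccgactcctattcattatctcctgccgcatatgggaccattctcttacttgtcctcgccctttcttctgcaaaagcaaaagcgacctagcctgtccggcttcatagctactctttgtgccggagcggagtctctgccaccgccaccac
Fzd4: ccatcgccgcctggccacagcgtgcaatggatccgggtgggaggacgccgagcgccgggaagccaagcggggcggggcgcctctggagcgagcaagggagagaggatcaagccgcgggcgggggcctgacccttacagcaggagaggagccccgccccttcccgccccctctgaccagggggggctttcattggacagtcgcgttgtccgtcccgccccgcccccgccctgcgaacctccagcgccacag
Ror1: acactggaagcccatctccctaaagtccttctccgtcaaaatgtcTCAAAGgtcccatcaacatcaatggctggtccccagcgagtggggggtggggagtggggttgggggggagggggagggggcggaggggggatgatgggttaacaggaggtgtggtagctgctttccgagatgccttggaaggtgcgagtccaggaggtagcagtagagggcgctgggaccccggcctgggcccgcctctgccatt
The windows of Fzd1 and Ror1 hold 1 match each and that of Fzd4 holds 0. A match is held by 13.83% of all 32851 RefSeq promoters. Of the 27 members with a promoter entry, 6 hold a match in any of their promoters. This count is per gene and so is not directly comparable with the share per promoter. The windows hold 12, 25 and 8 CpG dinucleotides for Fzd1, Fzd4 and Ror1, against a median of 6 over all promoters. A match is a description of the letters and not evidence of binding.

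Fzd1, a Frizzled receptor, was at 73.9 CPM in IMP1 wild type, 245 CPM in IMP1 knockout, 96.4 CPM in IMP2 wild type and 542 CPM in IMP2 knockout. Its ratios were 3.31-fold (3.09 to 3.56) in IMP1 knockout and 5.63-fold (5.34 to 5.93) in IMP2 knockout. Fzd4, a Frizzled that also serves the ligand Norrin, was at 4.51, 9.48, 7.92 and 36.0 CPM in the same order. It was 2.11-fold higher in IMP1 knockout (1.54 to 2.90), close to the 2-fold limit, and 4.55-fold higher in IMP2 knockout (3.77 to 5.53). Ror1 was at 9.21, 114, 13.1 and 34.5 CPM, which made it 12.4-fold higher in IMP1 knockout (10.4 to 14.9) and 2.64-fold higher in IMP2 knockout (2.25 to 3.09). Its relative Ror2 went the other way in IMP2 knockout, at 52.5 CPM in wild type and 21.5 CPM in knockout (2.44-fold lower, 2.16 to 2.77), and was 1.35-fold higher in IMP1 knockout.

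Single Frizzled genes differed in 1 knockout only by this 2-fold rule. Fzd9 was at 1.41 CPM in IMP1 wild type, 0.345 CPM in IMP1 knockout, 0.821 CPM in IMP2 wild type and 170 CPM in IMP2 knockout, so that the IMP2 knockout library stood 207-fold above its wild type (123 to 379, from 14 wild-type counts). Fzd8 was at 40.8, 56.8, 49.1 and 215 CPM in the same order, 4.38-fold higher in IMP2 knockout (4.06 to 4.73). Fzd7 was at 207, 442, 163 and 152 CPM, 2.13-fold higher in IMP1 knockout (2.04 to 2.23). Fzd6, a receptor of planar cell polarity, was 2.50-fold lower in IMP2 knockout (2.11 to 2.98), at 28.6 and 11.4 CPM, and its interval included no difference in IMP1 knockout. Fzd2, Fzd5 and the co-receptors Lrp5 and Lrp6 were within 2-fold in both comparisons. Lrp6 came closest to the limit, at 136 CPM in IMP2 wild type and 252 CPM in IMP2 knockout, 1.86-fold higher (1.76 to 1.95), and taking the mean of both wild types as the reference put it past 2-fold, at a log2 ratio of 1.13.

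The secreted antagonists held the largest differences of the 39 genes in IMP1 knockout. Dkk3, a secreted member of the Dickkopf family, was at 378 CPM in IMP1 wild type, 4.48 CPM in IMP1 knockout, 644 CPM in IMP2 wild type and 438 CPM in IMP2 knockout. The IMP1 knockout library alone was low, 84.3-fold below its wild type (64.2 to 113), and IMP2 knockout was 1.47-fold lower. Dkk2, an inhibitor that acts on Lrp co-receptors, was lower in both knockouts, at 27.8 and 12.3 CPM in IMP1 wild type and knockout (2.26-fold, 1.86 to 2.75) and at 47.2 and 2.87 CPM in IMP2 wild type and knockout (16.4-fold, 12.2 to 22.6).

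Sfrp1 and Sfrp2, relatives that both bind Wnts, were high in different knockouts. Sfrp1 was at 132, 772, 193 and 237 CPM in IMP1 wild type, IMP1 knockout, IMP2 wild type and IMP2 knockout, 5.85-fold higher in IMP1 knockout (5.57 to 6.15) and 1.23-fold higher in IMP2 knockout. Sfrp2 was at 6.52, 0.517, 9.44 and 959 CPM in the same order. It was 12.6-fold lower in IMP1 knockout (5.59 to 35.2, from 6 knockout counts) and 101-fold higher in IMP2 knockout (86.9 to 119). Sost, the bone-associated Lrp inhibitor sclerostin, had 194 counts (16.7 CPM) in IMP1 knockout against 1 count in IMP1 wild type, a ratio of 249 with a counting interval of 44.1 to 9873, and 1 and 4 counts in IMP2 wild type and knockout, a ratio of 4.16 (0.412 to 205). Wif1, a secreted Wnt-binding inhibitor, had 29 counts in IMP1 wild type and 0 in IMP1 knockout. Its ratio there was 7.54 against a floor of 3 counts per library, and the lower limit of its counting interval was 5.75. In IMP2 knockout Wif1 was 1.92-fold lower. Sostdc1 had 0 counts in 3 of the 4 total RNA libraries and 2 counts in IMP2 knockout. The higher values of Sfrp2, Fzd9 and Wnt11 in IMP2 knockout were in the library whose cartilage and bone markers, led by Col2a1 at 10560 CPM against 159 CPM in IMP2 wild type, were also high.

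Cytoplasmic components stayed within 2-fold in 7 of 7 cases with enough reads in IMP1 knockout and in 7 of 8 in IMP2 knockout. Most genes of any kind did so, since 15.4% and 18.8% of all genes differed at least 2-fold in either direction. Ctnnb1, which encodes beta-catenin, was at 556, 780, 594 and 974 CPM in IMP1 wild type, IMP1 knockout, IMP2 wild type and IMP2 knockout, 1.40-fold higher (1.36 to 1.45) and 1.64-fold higher (1.60 to 1.68). Dvl1 was lower in both, 1.58-fold (1.44 to 1.73) and 1.53-fold (1.41 to 1.67), while Dvl2 was 1.28-fold and 1.75-fold higher. The scaffold genes Apc and Axin1 and the kinase gene Gsk3b differed by at most 1.31-fold from their wild types. Axin2, a feedback target of the canonical branch, was the exception: it had 17 counts in IMP2 wild type and 81 in IMP2 knockout, 0.997 and 4.95 CPM, or 4.96-fold higher (2.91 to 8.93). In IMP1 wild type and knockout it had 11 counts and 1 count, below the 2 CPM minimum (a ratio of 8.58, interval 1.247 to 369).

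Of the transcription factors, Tcf7 was low in IMP1 knockout and Tcf7l1, known mainly as a repressor, was high in IMP2 knockout. Tcf7 was at 3.63, 0.345, 3.58 and 3.36 CPM in IMP1 wild type, IMP1 knockout, IMP2 wild type and IMP2 knockout, 10.5-fold lower in IMP1 knockout (3.88 to 40.0, from 4 knockout counts). Tcf7l1 was at 42.8, 75.4, 43.4 and 126 CPM, 2.91-fold higher in IMP2 knockout (2.67 to 3.17) and 1.76-fold higher in IMP1 knockout. Tcf7l2, the most studied factor of the family outside lymphoid cells, was 1.94-fold and 1.42-fold higher. Lef1 did not exceed 1.01 CPM and had 0 counts in IMP2 knockout.

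The knockouts share no control library. Of the 31 members with 2 CPM in both comparisons, 21 lay on the same side of 0. The matching shares of all genes, on the same side or past 2-fold in both, were not computed. The counts in this paragraph therefore describe the members only. The 5 genes at least 2-fold higher in both, Fzd1, Fzd4, Ror1, Rspo3 and Wnt5b, were 5 of the 8 higher in IMP1 knockout and 5 of the 11 higher in IMP2 knockout, and Dkk2 was the 1 gene lower in both. Sfrp2 and Wnt11 were past 2-fold in opposite directions, and 13 members, among them Apc, Axin1, Ctnnb1, Gsk3b, the 3 Dvl genes, Lrp5 and Lrp6, were within 2-fold in both.

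**Figure D2:**
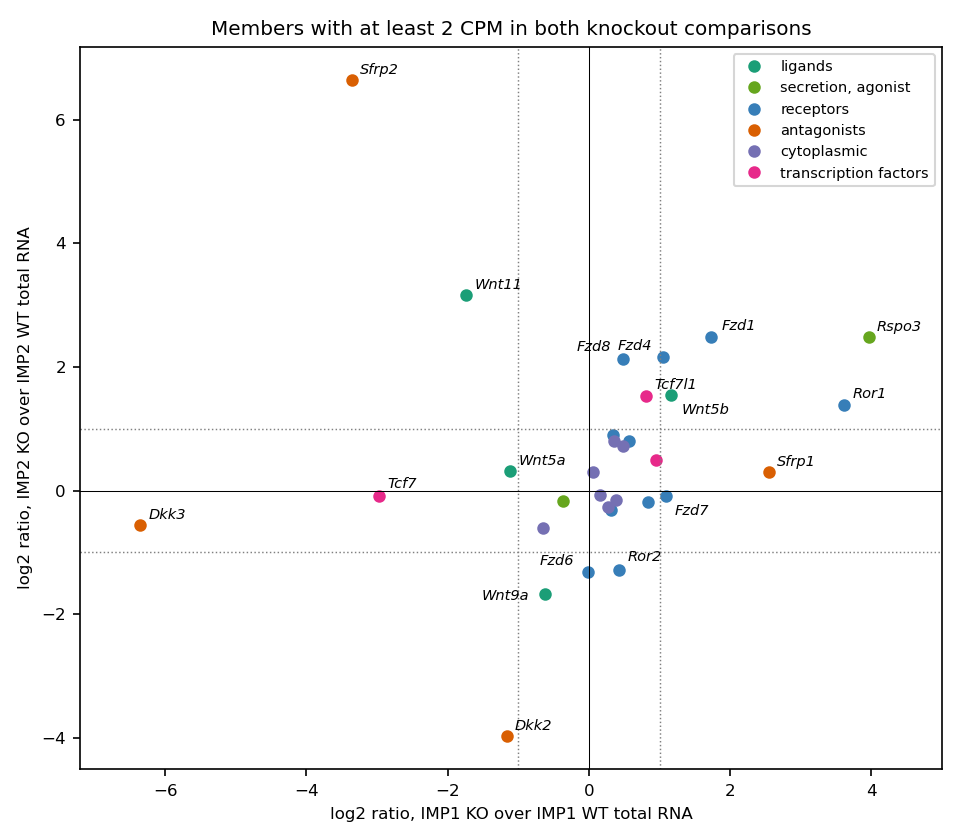
Log2 ratio of knockout over wild-type total RNA for IMP1 (x axis) and IMP2 (y axis) in the 31 Wnt signalling genes with at least 2 CPM in both comparisons, 1 point per gene coloured by role; dotted lines mark 2-fold and labels name genes past it in either comparison. Rspo3, Ror1, Fzd1, Fzd4 and Wnt5b lie at the upper right, Sfrp2 and Wnt11 at the upper left, and the cytoplasmic components lie near the centre.

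The immunoprecipitates ask which of these RNAs were recovered more with an IMP antibody than with IgG. Both comparisons use the same 3 IgG libraries, so IMP1 IP and IMP2 IP were also compared directly. Of the 39 members 34 passed the expression filter of the edgeR quasi-likelihood fit, and Wnt10b, Dkk2, Sost, Sostdc1 and Wif1 did not. A call is an adjusted p under 0.05 (Benjamini-Hochberg over 14076 genes). In IMP1 IP against IgG IP 16 members were higher, 7 lower and 11 without a call, where 31.7% of all genes were higher, 31.9% lower and 63.6% called. In IMP2 IP against IgG IP 10 were higher, 11 lower and 13 without a call, where 40.3% of all genes were higher, 37.3% lower and 77.6% called. In IMP1 IP against IMP2 IP 13 were higher, 8 lower and 13 without a call, where 34.1% of all genes were higher, 37.3% lower and 71.4% called. The 3 libraries of each group did not overlap for 23, 22 and 22 members in these comparisons, where 69.6%, 78.3% and 73.2% of all genes did not. Without IMP2 IP replicate 1 the counts were 17 higher and 7 lower, 13 higher and 10 lower, and 12 higher and 8 lower.

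Members' median log2 fold changes were 0.19 in IMP1 IP against IgG IP, 0.05 in IMP2 IP against IgG IP and 0.14 in IMP1 IP against IMP2 IP, beside -0.03, 0.04 and -0.01 over all genes tested. The split of higher and lower calls moved with the scaling of the libraries. Upper quartile scaling shifted the median of all genes to -0.20 in IMP1 IP against IgG IP and -0.14 in IMP2 IP against IgG IP, and scaling by total count shifted it to -0.19, 0.21 and, in IMP1 IP against IMP2 IP, -0.34. The members then stood at 12 higher and 10 lower in IMP1 IP against IgG IP under either scaling. In IMP2 IP against IgG IP they stood at 7 higher and 14 lower with the upper quartile and 18 and 9 with total counts. In IMP1 IP against IMP2 IP they stood at 6 and 16 with total counts. Measured from the median of all genes, which removes the shift between scalings by construction, the members' median was 0.23 in IMP1 IP against IgG IP, 0.01 in IMP2 IP against IgG IP and 0.15 in IMP1 IP against IMP2 IP. Of the 65 calls on members, 47 kept sign and call under every alternative run in which the gene was tested. A minimum of 10 CPM in 3 libraries left 23 members tested. Calls of Wnt4, Lef1, Axin2, Wnt5b and Rspo3 are among the 47, although these genes were not tested under that minimum.

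**Figure D3:**
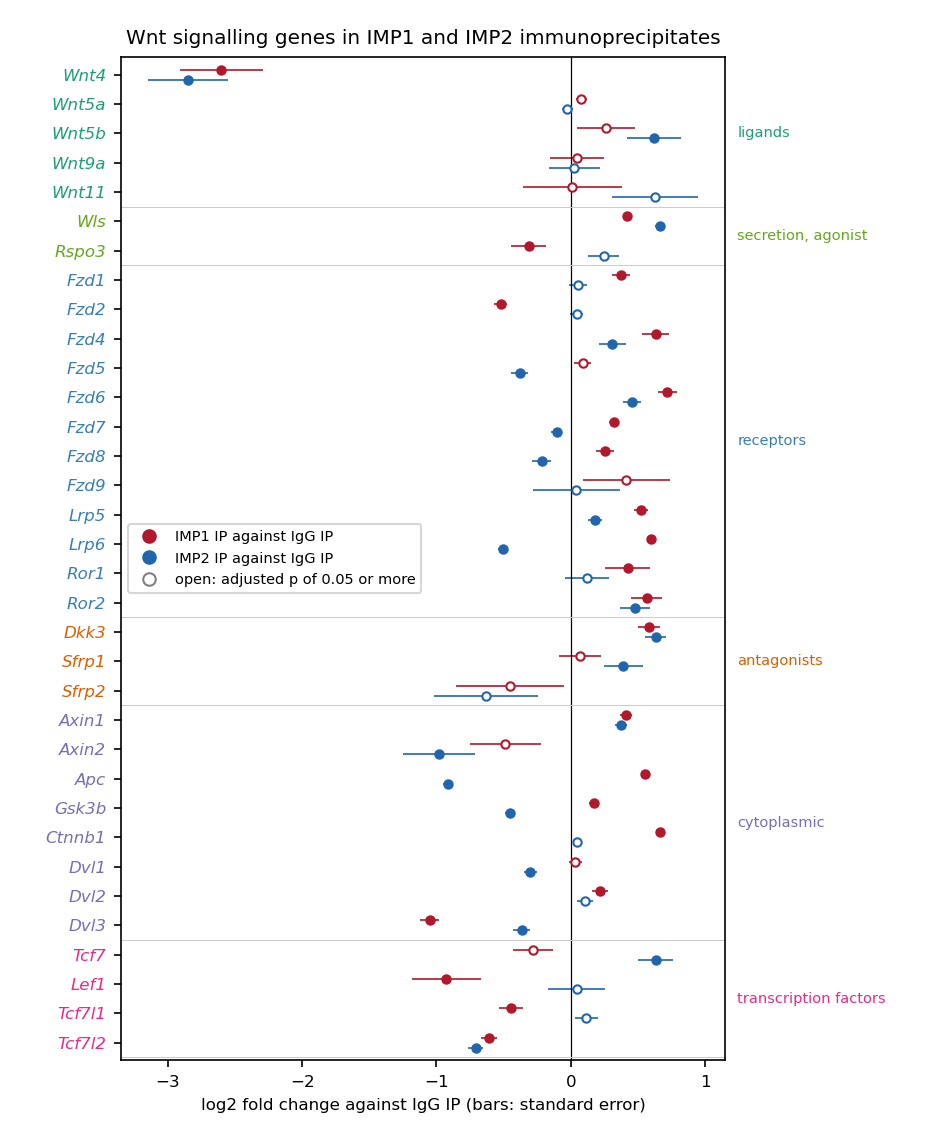
Log2 fold change of IMP1 IP (red) and IMP2 IP (blue) against IgG IP, with TMM scaling, for the 34 Wnt signalling genes tested, ordered by role, with standard errors as bars and open circles where the edgeR adjusted p was 0.05 or more. Red points of the receptors lie to the right of 0 except that of Fzd2, red points of the transcription factors lie to the left, and most blue points of the cytoplasmic genes lie to the left.

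Among the ligands, Wnt4 was depleted in both IMP precipitates and Wnt5a differed little between them. Wnt4 was at 1.73, 2.39 and 2.70 CPM in the 3 IgG IP libraries, 0.414, 0.253 and 0.433 CPM in IMP1 IP and 0.284, 0.396 and 0.246 CPM in IMP2 IP. All IMP libraries lay below all IgG libraries, with log2 fold changes of -2.60 ± 0.31 (SE, edgeR adjusted p = 1.72e-07) and -2.85 ± 0.30 (adjusted p = 1.46e-08). Wnt5a was at 92.3, 91.7 and 88.5 CPM in IgG IP, 96.7, 94.8 and 96.3 CPM in IMP1 IP and 86.1, 92 and 89.2 CPM in IMP2 IP. Its log2 difference of 0.11 ± 0.04 between IMP1 IP and IMP2 IP had an edgeR adjusted p of 0.0246, which became 0.0547 to 0.0990 without IMP1 IP replicate 1 or 2 or IMP2 IP replicate 1 or 3, ranged from 4.92e-05 to 0.313 over all alternatives and changed sign under total count scaling. Against IgG IP it made no call in either precipitate. It gained one in IMP1 IP with IMP2 IP replicate 1 left out (log2 fold change 0.09, adjusted p = 0.0255) or with no count filter, and in IMP2 IP it was called lower under upper quartile scaling or a minimum of 10 CPM and higher under total count scaling.

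Wnt5b was higher in IMP2 IP than in IgG IP by 0.62 ± 0.20 (edgeR adjusted p = 0.00733), at 2.08 to 2.98 CPM in IgG IP and 2.95 to 4.55 CPM in IMP2 IP, where the groups overlapped. Leaving out IMP2 IP replicate 2 also put it lower in IMP1 IP than in IMP2 IP (-0.50, adjusted p = 0.0228), as did total count scaling or no count filter. Wnt9a made no call in the 3 comparisons, at 1.80 to 3.24 CPM in the 9 libraries. Wnt11 made none either, at 0.426 to 1.36 CPM, except under total count scaling or without IMP2 IP replicate 3, when IMP2 IP was higher than IgG IP (0.79, adjusted p = 0.0420) and IMP1 IP lower than IMP2 IP (-0.77, adjusted p = 0.0418).

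Wls rose in both precipitates, more in that of IMP2. It was at 213, 211 and 207 CPM in IgG IP, 284, 279 and 283 CPM in IMP1 IP and 326, 335 and 337 CPM in IMP2 IP, with no overlap between any of the groups. The log2 fold changes against IgG IP were 0.42 ± 0.03 in IMP1 IP and 0.66 ± 0.03 in IMP2 IP. The direct difference was -0.24 ± 0.03 (edgeR adjusted p = 5.60e-07). Rspo3 was lower in IMP1 IP than in IMP2 IP, at 5.26, 6.57 and 5.38 CPM against 7.28, 8.97 and 8.87 CPM (-0.56 ± 0.12, adjusted p = 0.000193), with IgG IP between them at 6.98, 7.25 and 7.14 CPM. Its call against IgG IP in IMP1 IP (-0.31 ± 0.13, adjusted p = 0.0402) had adjusted p-values of 0.0703 to 0.153 without any 1 of the 3 IgG IP libraries or without IMP1 IP replicate 1 or 3, and 0.00259 to 0.153 over all alternatives. Against IgG IP in IMP2 IP it gained a call without IMP1 IP replicate 1 or 2 or IMP2 IP replicate 1 (0.26 to 0.35, adjusted p = 0.00615 to 0.0497), and under total count scaling or no count filter.

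Receptors were the group with the most calls upward in IMP1 IP: 9 of 12 rose against IgG IP and 1, Fzd2, fell, with a median log2 fold change of 0.42. In IMP2 IP 4 rose and 4 fell, and in IMP1 IP against IMP2 IP 8 were higher and 1 lower. Upper quartile or total count scaling left 7 higher and 1 lower in IMP1 IP against IgG IP, and total count scaling left 3 higher and 2 lower in IMP1 IP against IMP2 IP. In IMP2 IP against IgG IP the split was 2 higher and 5 lower under upper quartile scaling and 6 and 2 under total count scaling. Measured from the median of all genes, the receptors' median was 0.45 in IMP1 IP and 0.01 in IMP2 IP against IgG IP. With TMM scaling 31.7% of all genes were higher and 31.9% lower in IMP1 IP against IgG IP. The shares were 40.3% and 37.3% in IMP2 IP against IgG IP, and 34.1% and 37.3% in IMP1 IP against IMP2 IP.

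Lrp6, the co-receptor that carries the Wnt signal with Frizzled, moved in opposite directions in the precipitates of IMP1 and IMP2. It was at 457, 462 and 458 CPM in IgG IP, 684, 699 and 700 CPM in IMP1 IP and 322, 316 and 330 CPM in IMP2 IP. No library of one group reached another group, and the log2 fold changes were 0.60 ± 0.03 (edgeR adjusted p = 2.19e-13) in IMP1 IP, -0.51 ± 0.03 (adjusted p = 2.40e-12) in IMP2 IP and 1.105 ± 0.03 (adjusted p = 1.39e-18) between them. Its relative Lrp5 rose in both, from 91.4, 94.9 and 101 CPM in IgG IP to 137, 139 and 138 CPM in IMP1 IP (0.52 ± 0.05) and 119, 101 and 107 CPM in IMP2 IP (0.18 ± 0.05, adjusted p = 0.00358). The IMP2 IP values of Lrp5 overlapped those of IgG IP, and that call was lost with the DESeq2 test, DESeq2's size factors, upper quartile scaling or a minimum of 10 CPM.

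Fzd6 and Fzd4 rose in both precipitates and were higher in IMP1 IP than in IMP2 IP. Fzd6 was at 20.9, 19.2 and 20.7 CPM in IgG IP, 33.6, 31.7 and 35.0 CPM in IMP1 IP and 26.9, 28.1 and 28.5 CPM in IMP2 IP, in 3 ranges that did not overlap. Its log2 fold changes were 0.72 ± 0.07 and 0.46 ± 0.07, and the direct difference of 0.26 ± 0.06 (edgeR adjusted p = 0.000580) became -0.06 under total count scaling. Fzd4 was at 6.93 to 7.76 CPM in IgG IP, 10.7 to 11.5 CPM in IMP1 IP and 8.66 to 9.28 CPM in IMP2 IP, with log2 fold changes of 0.63 ± 0.10 and 0.31 ± 0.10. Its second call was lost with the DESeq2 test, upper quartile scaling or a minimum of 10 CPM, and its direct difference of 0.32 ± 0.09 went to 0.00 under total count scaling.

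Fzd7 and Fzd8 were higher in IMP1 IP and lower in IMP2 IP than in IgG IP. Fzd7 was at 147, 145 and 155 CPM in IgG IP, 185, 188 and 186 CPM in IMP1 IP and 141, 135 and 140.4 CPM in IMP2 IP. Its IMP1 IP libraries lay above all others (0.32 ± 0.04, edgeR adjusted p = 1.19e-07). The smaller fall in IMP2 IP (-0.11 ± 0.04, adjusted p = 0.0143) had adjusted p-values of 0.165 without IgG IP replicate 3 and 0.109 without IMP2 IP replicate 2, ranged from 6.06e-07 to 0.843 over the alternatives and became 0.07 under total count scaling. Fzd8 was at 25.1 to 26.4 CPM in IgG IP, 30.5 to 31.6 CPM in IMP1 IP and 20.3 to 23.3 CPM in IMP2 IP, with log2 fold changes of 0.25 ± 0.07 and -0.22 ± 0.07. The fall of Fzd8 in IMP2 IP was lost without IMP2 IP replicate 1 (-0.14, adjusted p = 0.0631; 2.22e-05 to 0.578 over the alternatives), and its rise in IMP1 IP was lost under upper quartile or total count scaling or a minimum of 10 CPM.

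Fzd2 was the 1 receptor that fell in IMP1 IP. It was at 82.6, 82.3 and 82.7 CPM in IgG IP, 59.4, 53.0 and 60.1 CPM in IMP1 IP and 87.8, 83.9 and 83.7 CPM in IMP2 IP. The IMP1 IP libraries lay below all others, at log2 fold changes of -0.52 ± 0.05 against IgG IP (edgeR adjusted p = 7.05e-09) and -0.56 ± 0.05 against IMP2 IP. Its value of 0.04 ± 0.05 in IMP2 IP against IgG IP made no call, and was called higher or lower depending on the scaling and the filter. Fzd5 fell in IMP2 IP, from 30.7 to 34.5 CPM in IgG IP to 24 to 25.1 CPM (-0.38 ± 0.06), and Fzd1 rose in IMP1 IP, from 27.2 to 30.4 CPM in IgG IP to 36.3 to 39.2 CPM (0.37 ± 0.07). Under total count scaling the higher value of Fzd1 in IMP1 IP than in IMP2 IP (0.32 ± 0.06) went to -0.01.

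Of the receptors of the Wnt5a branch, Ror2 rose in both precipitates and Ror1 made a call in IMP1 IP. Ror2 was at 7.41 to 10.8 CPM in IgG IP, 12.6 to 13.9 CPM in IMP1 IP and 11.6 to 13.8 CPM in IMP2 IP, with log2 fold changes of 0.57 ± 0.12 (edgeR adjusted p = 0.000209) and 0.48 ± 0.11 (adjusted p = 0.000607). Ror1 was at 4.17, 4.52 and 4.85 CPM in IgG IP and 5.50, 4.93 and 7.79 CPM in IMP1 IP (0.43 ± 0.17, adjusted p = 0.0304). The adjusted p of Ror1 was 0.102 without IgG IP replicate 1, 0.0599 without IgG IP replicate 2 and 0.265 without IMP1 IP replicate 3, and ran from 0.00321 to 0.265 over the alternatives. The call was also lost with the DESeq2 test and under upper quartile or total count scaling. In IMP2 IP Ror1 was at 4.15, 5.06 and 5.38 CPM, overlapping IgG IP, with no call (0.12 ± 0.17, adjusted p = 0.512). It was higher in IMP1 IP than in IMP2 IP only without IMP1 IP replicate 2 (0.43, adjusted p = 0.0204), with DESeq2's size factors or with the replicate number as a block. Fzd9, at 0.485 to 1.11 CPM, made no call.

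Few antagonist reads were present in the precipitates, and 3 of the 7 genes were tested. Dkk3 rose in both, from 12.7, 14.4 and 13.9 CPM in IgG IP to 21.0, 20.4 and 19.7 CPM in IMP1 IP and 20.2, 21.6 and 21.6 CPM in IMP2 IP. Every IMP library lay above every IgG library, at log2 fold changes of 0.58 ± 0.08 (edgeR adjusted p = 1.71e-06) and 0.63 ± 0.08 (adjusted p = 1.78e-07), and the direct comparison made no call. Sfrp1 was at 4.09 to 4.35 CPM in IgG IP and 5.17, 4.66 and 6.49 CPM in IMP2 IP (0.39 ± 0.15, adjusted p = 0.0183), a call lost without IMP2 IP replicate 3 (adjusted p = 0.131; 0.00119 to 0.189 over the alternatives). Its lower value in IMP1 IP than in IMP2 IP (-0.32 ± 0.14, adjusted p = 0.0395) had adjusted p-values of 0.0854 without IMP1 IP replicate 1, 0.145 without IMP1 IP replicate 3 and 0.295 without IMP2 IP replicate 3, in a range of 0.000183 to 0.295. Sfrp2 did not exceed 0.792 CPM and made no call. Dkk2, at 27.8 and 47.2 CPM in the wild types' total RNA, did not exceed 0.216 CPM in any IP library.

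Of the 34 genes tested, Apc of the destruction complex differed most between the IMP1 and IMP2 precipitates. Apc, the scaffold that presents beta-catenin for phosphorylation, was at 338, 331 and 344 CPM in IgG IP, 499.8, 494 and 496 CPM in IMP1 IP and 176, 180.4 and 180.1 CPM in IMP2 IP. It rose in IMP1 IP by 0.56 ± 0.03 (edgeR adjusted p = 1.10e-12), fell in IMP2 IP by 0.92 ± 0.03 on the log2 scale (adjusted p = 2.55e-16), and was 2.78-fold higher in IMP1 IP than in IMP2 IP (1.47 ± 0.03, adjusted p = 3.44e-20). Gsk3b, its kinase, was at 327, 313 and 309 CPM in IgG IP, 352, 355 and 364 CPM in IMP1 IP and 219, 235 and 240.2 CPM in IMP2 IP. Its rise in IMP1 IP (0.17 ± 0.04) was lost under upper quartile or total count scaling or a minimum of 10 CPM, while its fall in IMP2 IP (-0.45 ± 0.04) and its difference between the precipitates (0.62 ± 0.04, adjusted p = 8.58e-13) were kept. Axin1, the limiting scaffold, rose about equally in both, from 118, 127 and 126 CPM in IgG IP to 163, 162 and 169 CPM in IMP1 IP and 169, 154 and 158 CPM in IMP2 IP (0.41 ± 0.04 and 0.37 ± 0.04). The direct difference for Axin1 was 0.04 ± 0.04 without a call, was called higher with DESeq2's size factors and was -0.29 under total count scaling.

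Ctnnb1 rose in IMP1 IP, and was higher there than in IMP2 IP in the direct comparison. It was at 698, 692 and 706 CPM in IgG IP, 1109, 1110 and 1105 CPM in IMP1 IP and 705, 719 and 742 CPM in IMP2 IP. The IMP1 IP libraries lay far above the rest, by 0.66 ± 0.03 against IgG IP (edgeR adjusted p = 3.22e-14) and 0.62 ± 0.03 against IMP2 IP (adjusted p = 2.37e-14). In IMP2 IP against IgG IP the value was 0.05 ± 0.03, with an adjusted p of 0.162. Without IMP2 IP replicate 1 that value was 0.09 with an adjusted p of 0.00154, and over the alternatives its adjusted p ran from 8.05e-07 to 0.935 and its sign changed under upper quartile scaling or a minimum of 10 CPM (-0.13). Axin2, at 1.04 to 1.53 CPM in IgG IP and 0.572 to 0.780 CPM in IMP2 IP, fell in IMP2 IP (-0.98 ± 0.27, adjusted p = 0.00239).

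The 3 Dishevelled genes, whose products relay the signal from Frizzled, did not share a pattern. Dvl3 was at 37.9, 44.9 and 39.8 CPM in IgG IP, 19.6, 19.3 and 20.1 CPM in IMP1 IP and 32.5, 31.3 and 31.3 CPM in IMP2 IP, in 3 ranges apart. It fell by 1.05 ± 0.07 in IMP1 IP (edgeR adjusted p = 1.42e-11) and by 0.36 ± 0.06 in IMP2 IP (adjusted p = 2.15e-05). Dvl1 fell in IMP2 IP alone by the threshold, from 81.4 to 83.5 CPM in IgG IP to 61.9 to 71.1 CPM (-0.30 ± 0.05), and was higher in IMP1 IP than in IMP2 IP (0.34 ± 0.05), a difference lost under total count scaling. In IMP1 IP against IgG IP it made no call, and was called lower under upper quartile (-0.14) or total count (-0.12) scaling. Dvl2 rose in IMP1 IP, from 70.0 to 81.2 CPM in IgG IP to 79.3 to 93.5 CPM (0.22 ± 0.06, adjusted p = 0.00297), with overlapping libraries, and lost this call under upper quartile or total count scaling or a minimum of 10 CPM. In IMP2 IP Dvl2 gained a call over IgG IP without IgG IP replicate 2, IMP1 IP replicate 1 or IMP2 IP replicate 1 (0.12 to 0.17, adjusted p = 0.0158 to 0.0459), and in IMP1 IP over IMP2 IP without IMP1 IP replicate 1 (0.16, adjusted p = 0.0155), with further changes under the scalings and filters.

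As a group the 8 cytoplasmic genes stood at 5 higher and 1 lower in IMP1 IP and 1 higher and 5 lower in IMP2 IP, against IgG IP. The first split became 3 and 3 under upper quartile or total count scaling and the second 1 and 6 or 3 and 5. Measured from the median of all genes, their median was 0.23 in IMP1 IP, while in IMP2 IP it was -0.37. The direct comparison gave 4 higher and 1 lower in IMP1 IP, or 3 and 3 under total count scaling. With TMM scaling 63.6% of all genes were called in IMP1 IP against IgG IP (31.7% higher, 31.9% lower). In IMP2 IP against IgG IP 77.6% were called (40.3% higher, 37.3% lower), and in the direct comparison 71.4% (34.1% higher, 37.3% lower).

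**Figure D4:**
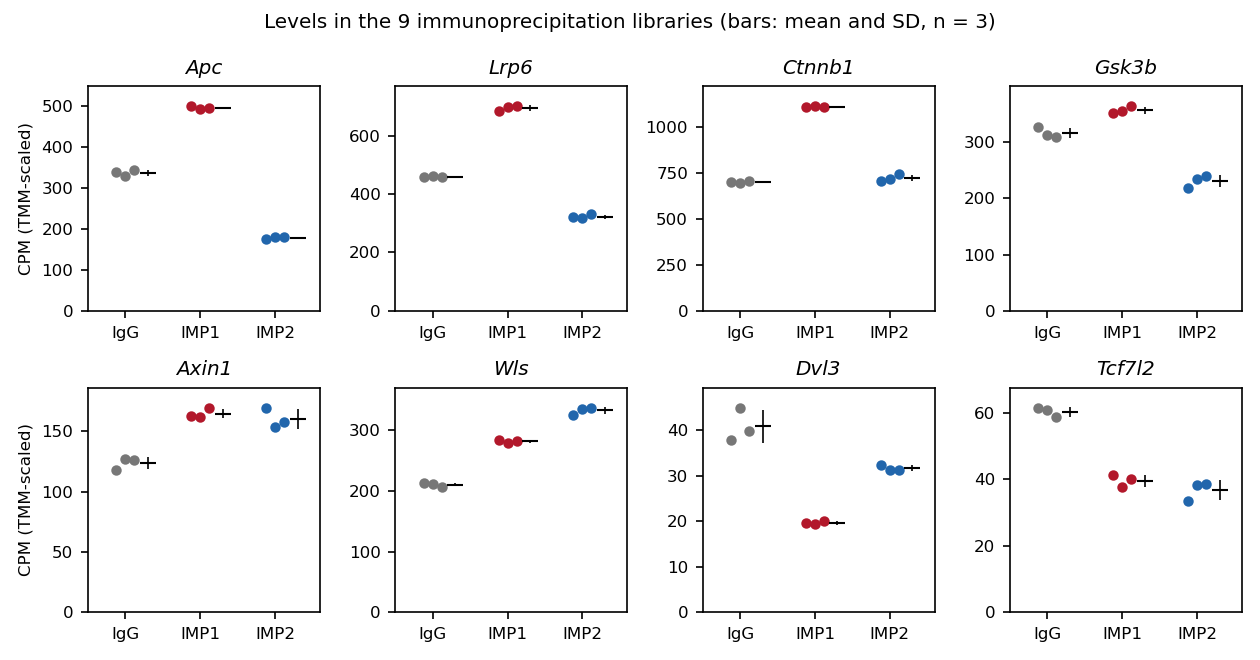
CPM of 8 Wnt signalling genes in each of the 9 IP libraries, 1 point per library, with the mean and SD (n = 3) beside each group and axes that start at 0. Apc, Lrp6 and Gsk3b lie above IgG in IMP1 IP and below it in IMP2 IP, Ctnnb1 lies above the rest in IMP1 IP, Axin1 and Wls lie above IgG in both, and Dvl3 and Tcf7l2 lie below IgG in both.

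None of the 4 transcription factors rose in IMP1 IP, where 3 fell with a median of -0.53 over the 4, and under upper quartile or total count scaling all 4 fell. Of all genes tested, 31.7% were called higher and 31.9% lower in IMP1 IP with TMM scaling. Tcf7l2 was at 61.5, 61.1 and 58.7 CPM in IgG IP, 41.2, 37.7 and 40.1 CPM in IMP1 IP and 33.5, 38.4 and 38.6 CPM in IMP2 IP. It fell in both, by 0.61 ± 0.06 (edgeR adjusted p = 1.03e-08) and 0.71 ± 0.06 (adjusted p = 3.38e-10) on the log2 scale. Tcf7l1 fell in IMP1 IP (-0.45 ± 0.09), from 14.1, 15.0 and 16.4 CPM in IgG IP to 11.1, 11.2 and 11.1 CPM, and IMP2 IP was at 16.8, 17.2 and 15.4 CPM. Lef1, at 1.45 to 2.09 CPM in IgG IP, was at 0.758 to 1.18 CPM in IMP1 IP (-0.93 ± 0.26, adjusted p = 0.00347) and 1.53 to 2.09 CPM in IMP2 IP. Tcf7 differed from the others in IMP2 IP, where it rose to 10.9, 14.0 and 12.8 CPM from 7.77, 9.12 and 7.70 CPM in IgG IP (0.63 ± 0.13, adjusted p = 0.000157). In IMP1 IP Tcf7 was at 5.14, 6.82 and 8.22 CPM and made no call. It gained one without IMP1 IP replicate 3 (-0.45, adjusted p = 0.0178) and under upper quartile or total count scaling, a minimum of 10 CPM or a fit of the 6 libraries compared, with adjusted p-values of 0.0115 to 0.548 over the alternatives. In the direct comparison Tcf7, Lef1 and Tcf7l1 were lower in IMP1 IP than in IMP2 IP by 0.56 to 0.97 on the log2 scale. Tcf7l2 made no call there, was called higher with DESeq2's test or size factors or a minimum of 10 CPM, and was called lower under total count scaling.

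IgG IP was also set beside the wild types' total RNA. Among 33 members with a mean of 2 CPM in the wild types' total RNA, 7 stood 2-fold or more above it in IgG IP and 15 stood 2-fold or more below it, where 18.7% of all genes were higher and 38.9% lower. The members' shares, 21.2% and 45.5%, were near those of all genes, and the IP and total RNA libraries were scaled separately. Of 23 genes for secreted or membrane proteins, 1 (Lrp6) was higher and 14 lower, and of 10 cytoplasmic components and transcription factors, 6 (Apc, Gsk3b, Axin1, Dvl2, Tcf7, Tcf7l2) were higher and 1 lower. Apc, for example, was at 65.8 and 71.9 CPM in the wild types and 331 to 344 CPM in IgG IP, while Dkk3 was at 378 and 644 CPM and 12.7 to 14.4 CPM, and Rspo3 at 61.9 and 92.8 CPM and 6.98 to 7.25 CPM. The share of uniquely aligned reads counted to no annotated feature was 29.2% to 30.4% for IgG IP and 9.67% to 9.74% for IMP1 IP. It was 6.54% to 7.20% for IMP2 IP and 7.49% to 8.28% for total RNA. Whether reads in introns are among them is not known, since the counting settings are not given. The part of this share in the values above was not tested.

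**Figure D5:**
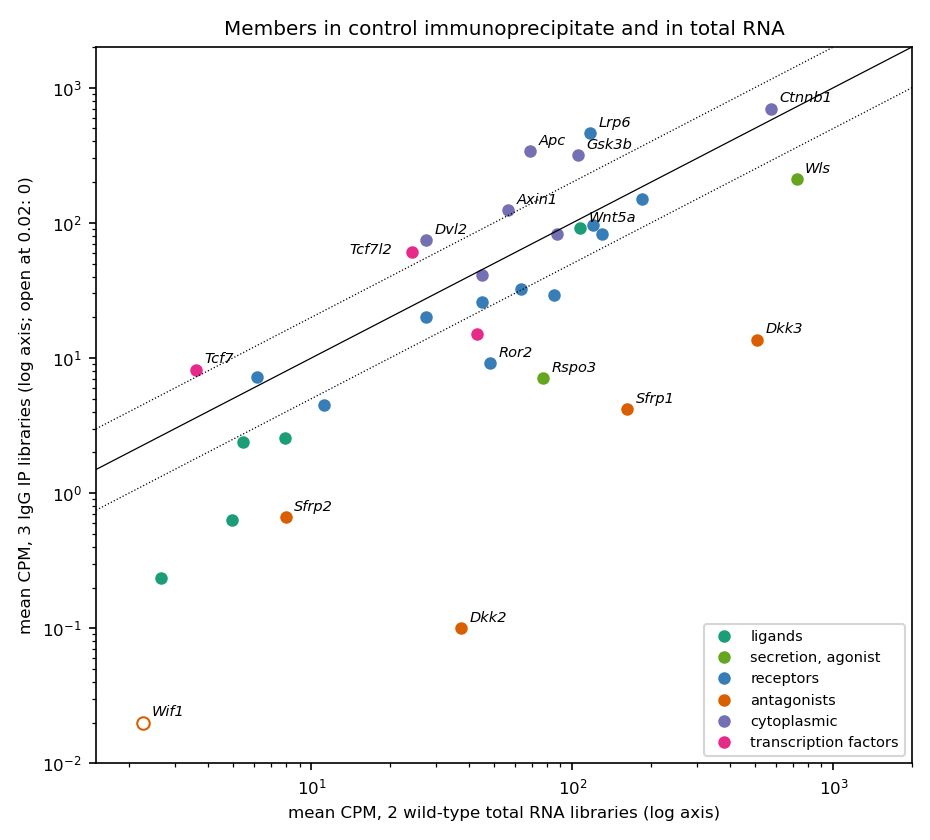
Mean CPM in the 2 wild-type total RNA libraries (x axis, log) against mean CPM in the 3 IgG IP libraries (y axis, log) for the 33 Wnt signalling genes with at least 2 CPM in total RNA, coloured by role; the solid line marks equal values, dotted lines 2-fold, and the open circle Wif1 at 0 in IgG IP. Cytoplasmic genes lie near or above the line, and most antagonists, ligands and receptors lie below it.

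A wider list of 89 other Wnt pathway genes, of which 62 were tested, gave 30 higher and 12 lower in IMP1 IP against IgG IP, 17 higher and 30 lower in IMP2 IP against IgG IP, and 30 higher and 17 lower in IMP1 IP against IMP2 IP. Over all genes tested, 31.7% were higher and 31.9% lower in the first comparison. The shares were 40.3% and 37.3% in the second and 34.1% and 37.3% in the third. In IMP1 IP the largest rises were those of Tnks2, a tankyrase that marks Axin for degradation (0.94 ± 0.03), Chd8, a chromatin remodeller that binds beta-catenin (0.69 ± 0.04), and Daam1, a formin downstream of Dishevelled (0.66 ± 0.05), and the largest falls those of Wnt2b (-1.67 ± 0.26), the corepressor Tle2 (-1.43 ± 0.12) and the polarity gene Vangl2 (-1.13 ± 0.08). In IMP2 IP Rac1 (0.92 ± 0.04), the beta-catenin inhibitor Cby1 (0.81 ± 0.10) and the Wnt receptor Ryk (0.77 ± 0.04) rose most, and Celsr3 (-1.55 ± 0.33), Tle2 (-1.48 ± 0.11) and Wnt2b (-1.38 ± 0.23) fell most. Between the precipitates Chd8 (1.48 ± 0.04), Amer1, a partner of Apc (1.31 ± 0.07), and Ccdc88c (1.18 ± 0.14) were higher in IMP1 IP, and Cby1 (-1.45 ± 0.10), Rhoa (-1.14 ± 0.04) and Ctnnbip1 (-0.88 ± 0.10) were lower. Of the 15 planar polarity genes 3 were higher and 11 lower in IMP2 IP against IgG IP, and 5 higher and 4 lower in IMP1 IP.

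In total RNA 12 of 64 of these other genes were higher by 2-fold or more and 7 lower in IMP1 knockout, and 11 of 65 were higher and 10 lower in IMP2 knockout. Over all genes 6.53% were higher and 8.91% lower in IMP1 knockout, and 10.2% and 8.59% in IMP2 knockout. Nkd1, a feedback inhibitor that binds Dishevelled, was high in both knockouts, with 112 and 1740 counts in IMP1 wild type and knockout (19.9-fold, 16.4 to 24.3) and 139 and 2405 counts in IMP2 wild type and knockout (18.0-fold, 15.2 to 21.5). Its relative Nkd2 was 8.50-fold higher in IMP1 knockout and 8.65-fold lower in IMP2 knockout. Frzb, a secreted antagonist, was 14.3-fold higher in IMP1 knockout (12.3 to 16.8), and 2.89-fold higher in IMP2 knockout (2.48 to 3.38). Shisa2 (8.4-fold) and Wnt6 (9.37-fold) were higher in IMP2 knockout, and both were below 2 CPM in the IMP1 libraries. Lgr6, a receptor for R-spondins, was lower in both, with 4 counts against 173 in IMP1 knockout (33.7-fold, 12.9 to 125) and 3 counts against 62 in IMP2 knockout (a ratio of 19.9, 6.49 to 98.9). Wnt10a had 1 count in IMP1 knockout against 303 in wild type (a ratio of 236, 42.1 to 9366). In IMP2 knockout Wnt10a was within 2-fold. Wnt16 was lower in IMP1 knockout, with 9 counts against 114 (9.88-fold, 5.03 to 22.2), and higher in IMP2 knockout, with 611 counts against 232 (2.74-fold, 2.35 to 3.20). Wnt2b was lower in both, with 8 counts against 38 in IMP2 knockout and 13 against 35 in IMP1 knockout.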

How the data were processed

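The authors deposited raw counts of reads for each Ensembl gene ID and library. The submitters' processing notes name STAR, HTSeq and build mm10; versions, annotation and strand setting are not given in the sources used here. Whether antisense genes were told apart is therefore not known. Reads tallied as ambiguous made up 7.11% to 7.67% of uniquely aligned reads in IgG IP and 2.52% to 2.95% in the other libraries. The 5 tally lines of each file were kept out of library sizes. Symbols came from a gene name table (42462 of 43629 IDs). The 9 IP libraries were fitted in R 4.3.3 with edgeR 4.0.16 (quasi-likelihood, TMM, filterByExpr by group, no covariate), over all genes, two-sided, with Benjamini-Hochberg adjustment; standard errors are the size of the log2 fold change over the root of the F statistic, and the common biological coefficient of variation was 3.84%. Total RNA ratios used TMM-scaled CPM, log2 ratios a prior count of 2, and no test. The edgeR steps were also run on simulated counts in which few genes changed, in equal numbers up and down. That run cannot bear on the choice of scaling when most genes are called. Alternatives were DESeq2 1.42.0, 3 other scalings, other filters, a replicate block, 6-library fits and leaving out each library. All 39 members are named; other pathway genes are the 3 highest and 3 lowest log2 fold changes called or, in total RNA, the 3 highest and 3 lowest log2 ratios with the prior count, whose order can differ from that of the plain folds. Members and lists were chosen with earlier results of these data known. The planned search for genes with like patterns is not reported, since IP and total RNA libraries form separate clusters.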

Additional observations from a re-analysis of the deposited data

Results flagged for a closer look

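Among members with at least 2 CPM in both comparisons, 2 genes lay past 2-fold in opposite directions in the 2 knockout libraries. The log2 ratio of Wnt11 was -1.74 in IMP1 knockout and 3.17 in IMP2 knockout, and that of Sfrp2 was -3.35 in IMP1 knockout and 6.65 in IMP2 knockout. Fzd9 (-1.692 and 7.475) and Axin2 (-1.991 and 2.167) were also past 2-fold in opposite directions. Both were below 2 CPM in the IMP1 wild type and knockout libraries. With 1 library per group, these differences were not tested.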

How the results depend on the processing

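Member counts kept within 1.5 times of their reported values when any 1 library was left out: 15 to 17 higher and 6 to 7 lower in IMP1 IP against IgG IP, 10 to 13 and 10 to 11 in IMP2 IP against IgG IP, and 12 to 13 and 7 to 9 in IMP1 IP against IMP2 IP. Beyond 1.5 times were 18 higher (total count scaling) and 6 higher (10 CPM in 3 libraries) in IMP2 IP against IgG IP; 6 higher and 16 lower (total count scaling) and 5 lower (10 CPM) in IMP1 IP against IMP2 IP; and 9 members 2-fold different in IMP1 knockout (10 CPM). DESeq2's size factors gave 17 higher and 7 lower in IMP1 IP against IMP2 IP. Of 1698 member values in the IP comparisons 1519 kept sign and call, 62 changed sign without a call, 52 lost a call, 49 gained one and 16 changed sign with a call. Those 16 were, in IMP1 IP against IgG IP, Dvl1 at -0.14 (upper quartile) and -0.12 (total count); in IMP2 IP against IgG IP, Ctnnb1 at -0.13 under upper quartile and -0.13 under the 10 CPM minimum, Fzd2 at -0.14 and -0.13 under the same, and Wnt5a at 0.15 and Fzd7 at 0.068 under total count; and in IMP1 IP against IMP2 IP under total count, Dvl2 at -0.22, Ror2 at -0.24, Wnt5a at -0.22, Fzd6 at -0.064, Axin1 at -0.29, Tcf7l2 at -0.22, Fzd1 at -0.0093 and Fzd4 at -0.0047. The scalings differ by a constant per library. Library sizes and TMM factors were computed after filtering, so a change of filter also changed the scaling. Any further part of the filters in these changes was not tested. Replicate numbers did not pair the libraries (correlations of same-numbered libraries' deviations -0.0587 to 0.0733); with the replicate block the counts were 16 and 7, 10 and 11, and 14 and 8. In total RNA 235 of 259 member values kept within their counting interval and 24 did not, all 24 with the mean of both wild types. A correction for transcript length was not run, since no transcript lengths were at hand. Genes under 1 CPM rest on few counts, and differences there were often not detectable at this depth.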
